A study of Rattus norvegicus with 27 samples.

Results

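Myelin and oligodendrocyte genes were followed across 3 brain regions of diabetic and control rats. The 9 genes were Mbp, Mobp, Mog, Mag, Mal, Cldn11, Ugt8, Olig1 and Sox10, chosen by name, and the array carried 14 probes for them among its 41012 probes and the 15505 genes that could be named. RNA from the hippocampus, prefrontal cortex and striatum of male rats was hybridised with a single dye, with 3 pools of 3 animals for each region and animal group, which gives 27 arrays in 9 groups. Goto-Kakizaki rats, the type 2 model, are an inbred strain derived from Wistar rats that becomes diabetic without treatment, and were 10 weeks old with an average blood sugar of 13.9 mmol/l. Streptozotocin rats, the type 1 model, were Wistar animals given 65 mg/kg of this beta-cell toxin into a vein at 6 weeks of age, and were killed 4 weeks later with an average blood sugar of 26.34 mmol/l. Controls were 10-week-old Wistar rats with an average blood sugar of 7.64 mmol/l. Goto-Kakizaki rats differ from the controls in strain as well as in blood sugar, so the parts of strain and diabetes cannot be told apart. Every model was represented by 9 animals that gave all 3 regions, and results in different regions are therefore not independent of each other. The p-values measure the spread between pools.

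Oligodendrocytes wrap axons of the central nervous system in myelin, a stack of membranes that speeds the conduction of impulses. Precursor cells become myelinating cells under transcription factors such as Olig1 and Sox10, and then make large amounts of a small set of sheath proteins and of the lipid galactosylceramide. The striatum is crossed by bundles of myelinated fibres, while the grey matter of the cortex holds fewer of them. In whole tissue, fewer oligodendrocytes and less myelin RNA per cell cannot be told apart.

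The change described most closely below is that of Mobp, which encodes a small basic protein of compact myelin on chromosome 8 (8:128747117-128777238 in the GRCr8 RefSeq gene table). Its 3 probes gave unequal changes, and their sequences are shown because they read different stretches of the RNA. They are printed in lower case, with no base marked.
Mobp A_44_P167930: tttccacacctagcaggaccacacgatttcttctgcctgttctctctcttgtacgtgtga
Mobp A_44_P353699: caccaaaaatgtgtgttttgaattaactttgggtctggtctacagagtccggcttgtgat
Mobp A_44_P245674: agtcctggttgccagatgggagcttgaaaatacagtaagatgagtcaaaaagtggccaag
Each is 60 bases long, and the longest run of bases that any pair of them shares on the same strand is 4 to 6. The array annotation assigns A_44_P167930 and A_44_P245674 to the same Mobp mRNA, and A_44_P353699 to a separate mRNA record of the gene. The probe sequences were not compared with the genome of the Goto-Kakizaki strain here.

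The 75th percentile of the signal lay between 690 and 1527 on the 27 arrays, and 67.4% to 75.3% of the probes were well above background. Of the 14 probes for these genes, 13 exceeded background clearly on all 27 arrays, with none saturated or marked as an outlier. The remaining probe, Ugt8 A_43_P12003, was well above background on 0 of 27 arrays and was not tested. All 8 markers of striatal neurons were called higher in the striatum than in the prefrontal cortex of controls, where 3.96% of all probes were, with a median log2 difference of 3.85. Of 5 cortical markers, 3 were called lower. With the 75th percentile as 1, their summed level was 6.70 to 7.75 in striatal and 11.7 to 13.4 in prefrontal control pools. That of 5 hippocampal markers was 0.80 to 0.99 in hippocampal, 0.28 to 0.31 in prefrontal and 0.34 to 0.52 in striatal control pools. Schwann cells of peripheral nerves also make several of these proteins. The summed level of the 4 Schwann cell markers on the array, counted with the 75th percentile as 1, lay between 0.356 and 4.69 in the control pools, and their part in the levels was not tested.

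Levels below are log2 values relative to the 75th percentile of the array, so that 0 is that percentile and a step of 1 is a 2-fold difference. A probe was called when its adjusted p in the limma fit was under 0.05 and the change was at least 2-fold. Among control rats, all of the tested probes were highest in the striatum and lowest in the prefrontal cortex. Mal, a proteolipid that takes part in the transport of myelin membrane, had levels of 3.32, 3.99 and 3.72 in the striatal pools, 1.34, 1.11 and 1.69 in the prefrontal pools and 2.52, 2.28 and 2.54 in the hippocampal pools. Cldn11, the claudin that forms the tight junctions of the sheath, had 1.44, 2.11 and 1.63 in the striatum, -0.34, -0.48 and 0.08 in the prefrontal cortex and 0.98, 0.91 and 0.79 in the hippocampus. For either gene the 3 regions did not overlap.

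**Figure D1:**
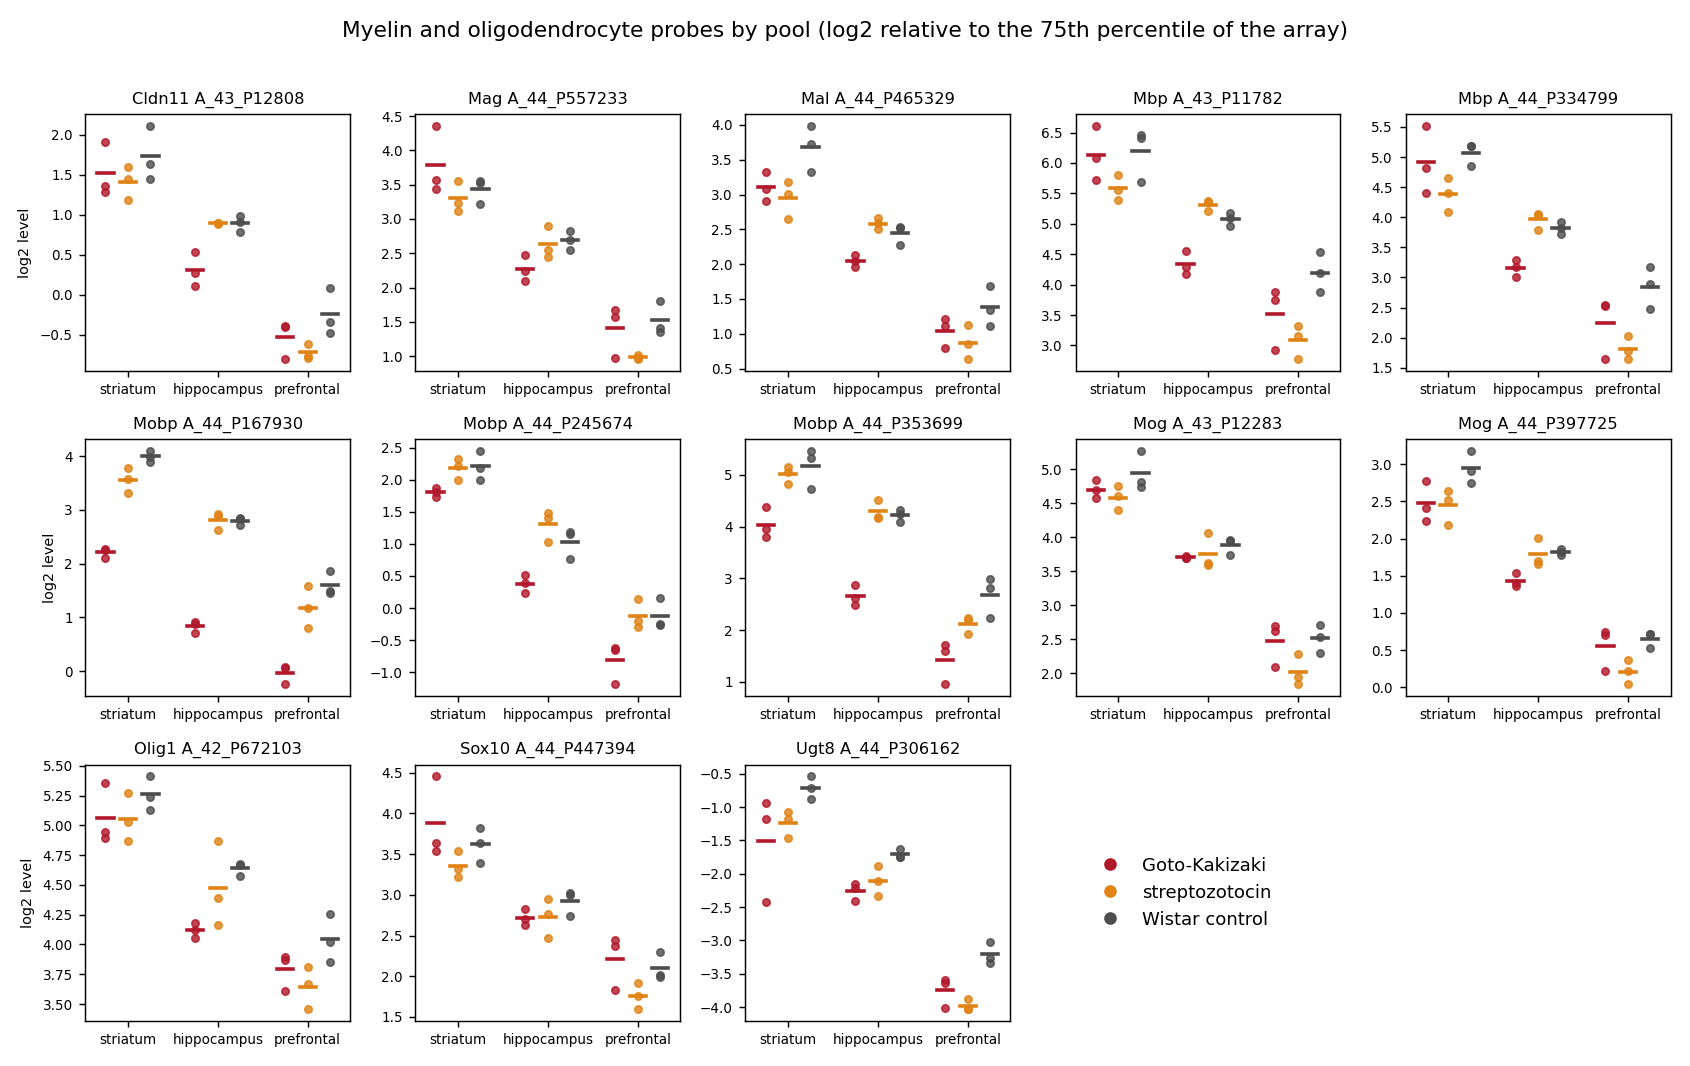
Log2 level relative to the 75th percentile of the array (vertical axis, a scale of its own for each probe) for the 13 tested probes, by region and animal group. Points are pools, and bars are means of 3. Striatal pools lie above prefrontal pools for every probe and animal group, and the Goto-Kakizaki pools of Mobp A_44_P167930 and A_44_P353699 lie below the other pools of the same region.

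Between the striatum and the prefrontal cortex of controls, 13 of 13 probes were called higher, where 3.96% of all probes were. The log2 differences had a median of 2.29, beside 0.00 over all probes. Ugt8, the enzyme that adds galactose to ceramide, had the largest (2.50, SE 0.25), with levels of -0.71, -0.89 and -0.54 in the striatum and -3.27, -3.34 and -3.02 in the prefrontal cortex. Olig1 had the smallest (1.22, SE 0.17), and Sox10 came next (1.52, SE 0.21). Slides 5 and 6 each held 1 control pool of either region, and comparisons within them set 1 pool against 1 pool. On slide 6, Olig1 differed by 0.87 and Sox10 by 1.10. On slide 5, the striatal and prefrontal pools were at 5.41 and 4.02 for Olig1 and at 3.82 and 1.99 for Sox10. Mbp A_43_P11782 was at 5.69 and 3.88 there, a step close to that of Sox10. By the means of 3 pools, the transcription factors had the smallest steps between these regions. No test compared one gene's step with another's.

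Between the prefrontal cortex and the hippocampus, 9 of 13 probes were called lower, where 2.46% of all probes were. The median was -1.15 beside 0.02 over all probes, and the range ran from -1.53 for Mobp A_44_P353699 to -0.60 for Olig1. The probes not called were those of Mbp (-0.88 and -0.98), Olig1 and Sox10 (-0.82, adjusted p = 0.00744), all under 2-fold. Between the striatum and the hippocampus, 8 of 13 were called higher, where 4.15% of all probes were, with a median of 1.06 beside 0.03. All 13 had an adjusted p under 0.05 here, and the uncalled probes of Cldn11, Mag, Mobp A_44_P353699, Olig1 and Sox10 lay between 0.62 and 0.95. The call of Ugt8 (1.00, SE 0.25) was lost without hippocampal control pool 1 or 3 or striatal control pool 1 or 3, that of Mbp A_43_P11782 (1.11) without striatal control pool 1 or 3, that of Mog A_43_P12283 (1.06) without hippocampal or striatal control pool 2, and the prefrontal call of Mal (-1.07) without prefrontal control pool 2.

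The order of the regions was alike in the 3 animal groups. Striatal pools lay above prefrontal pools for 13 of 13 probes in Goto-Kakizaki, streptozotocin and control rats, with median differences of 2.23, 2.32 and 2.29, where 24.3%, 23.3% and 19.1% of all probes measured on every such array did so. Hippocampal pools lay above prefrontal pools for 13 of 13 probes in each, with medians of 0.88, 1.65 and 1.15, where 18.7%, 16.4% and 19.2% of all probes did. Striatal pools lay above hippocampal pools for 12 probes in Goto-Kakizaki rats, 11 in streptozotocin rats and 13 in controls, with medians of 1.21, 0.66 and 1.06, where 34.4%, 22.4% and 24.5% of all probes did.

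In Goto-Kakizaki rats, Mobp was lower than in controls in every region, by 2 of its 3 probes. In the hippocampus, Mobp A_44_P167930 had levels of 0.89, 0.92 and 0.71 in the Goto-Kakizaki pools, 2.63, 2.89 and 2.92 in the streptozotocin pools and 2.85, 2.72 and 2.84 in the control pools. In the prefrontal cortex, it had -0.24, 0.08 and 0.07 in Goto-Kakizaki pools, 1.17, 0.80 and 1.58 in streptozotocin pools and 1.49, 1.46 and 1.86 in control pools. In the striatum, it had 2.27, 2.25 and 2.11 in Goto-Kakizaki pools, 3.31, 3.59 and 3.77 in streptozotocin pools and 3.99, 3.90 and 4.10 in control pools. Goto-Kakizaki pools were the lowest in each region, and never overlapped with either of the other groups.

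The change of Mobp A_44_P167930 between Goto-Kakizaki and control rats was -1.96 for hippocampus (SE 0.16, adjusted p = 4.8e-08), -1.63 for prefrontal cortex (SE 0.16, adjusted p = 6.53e-07) and -1.79 for striatum (SE 0.16, adjusted p = 1.86e-07) in the limma fit. On a linear scale its signal in Goto-Kakizaki rats was thus 0.257, 0.323 and 0.290 times that of controls in these regions. Within slide 2, with 1 Goto-Kakizaki and 2 control hippocampal pools, the change was -1.96, and within slide 4, with 3 Goto-Kakizaki and 1 control striatal pools, it was -1.78. No slide held prefrontal pools of both groups.

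The second probe, Mobp A_44_P353699, followed the same pattern. Its hippocampal levels were 2.48, 2.88 and 2.61 in Goto-Kakizaki rats, 4.17, 4.19 and 4.52 in streptozotocin rats and 4.09, 4.25 and 4.31 in controls. Its prefrontal levels were 0.96, 1.71 and 1.59 in Goto-Kakizaki rats, 2.19, 1.91 and 2.22 in streptozotocin rats and 2.82, 2.24 and 2.99 in controls. Its striatal levels were 4.37, 3.79 and 3.95 in Goto-Kakizaki rats, 4.82, 5.16 and 5.06 in streptozotocin rats and 5.46, 4.72 and 5.32 in controls. The Goto-Kakizaki pools again lay below all others of their region. The hippocampal change from controls was -1.56 (SE 0.22, adjusted p = 9.19e-05), the prefrontal change -1.27 (SE 0.22, adjusted p = 0.000747) and the striatal change -1.13 (SE 0.22, adjusted p = 0.00184). The striatal call was lost without striatal control pool 1, where the change was -0.98.

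Mobp A_44_P245674, the third probe, differed less. Its changes from controls were -0.65 for hippocampus (adjusted p = 0.0339), -0.70 for prefrontal cortex (adjusted p = 0.0157) and -0.40 for striatum (adjusted p = 0.142), all under 2-fold and none called. Its hippocampal levels were 0.23, 0.52 and 0.40 in Goto-Kakizaki pools, against 1.18, 0.76 and 1.16 in control pools, and these groups did not overlap in any region. The gap between Mobp A_44_P167930 and A_44_P245674 within a pool was 0.32 to 0.65 in Goto-Kakizaki hippocampi and 1.67 to 1.96 in control hippocampi. The gap in Goto-Kakizaki minus that in control rats was -1.31 for hippocampus, -0.93 for prefrontal cortex and -1.38 for striatum, without overlap of the pools. In streptozotocin rats it was -0.26, -0.42 and -0.41, with overlap in the striatum only. The gap between A_44_P245674 and A_44_P353699 shifted from controls by 0.91, 0.57 and 0.73 in Goto-Kakizaki rats, in the same order of regions. In streptozotocin rats it shifted by 0.20, 0.57 and 0.12, so the prefrontal shift was alike in both models. The 3 probes thus measured unequal changes of the same gene, and whether sequence differences between the strains play a part was not tested.

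**Figure D2:**
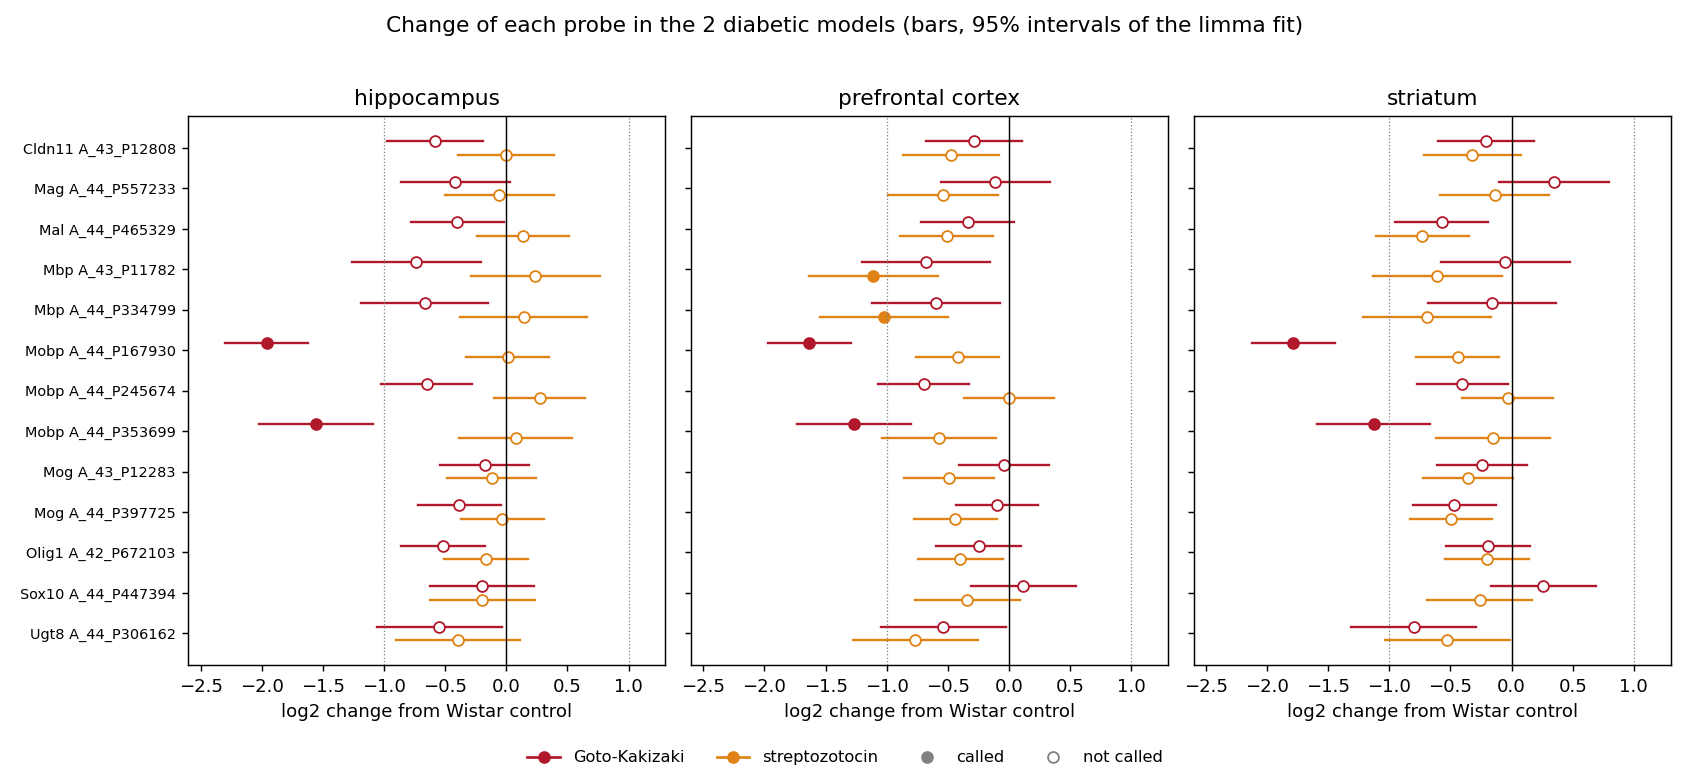
Log2 change from Wistar control (horizontal axis) for the 13 tested probes in each region, Goto-Kakizaki above streptozotocin. Bars are 95% intervals of the limma fit, filled points are called probes, and dotted lines mark 2-fold. The called points are 2 Mobp probes of Goto-Kakizaki rats in every region (-1.96 to -1.13) and the 2 Mbp probes of streptozotocin rats in the prefrontal cortex (-1.11 and -1.02).

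The called probes of Goto-Kakizaki rats were those 2 of Mobp, 2 of 13 called lower in each region, where 1.14% of all probes were called lower in hippocampus, 1.75% in prefrontal cortex and 1.47% in striatum. In the hippocampus the 10 probes of the other 8 genes were all below controls without being called, with a median of -0.47, a range of -0.74 to -0.18 and a lowest adjusted p of 0.0797. The median over all probes was -0.04. Mbp A_43_P11782, for myelin basic protein, which holds the membrane layers together, had 4.29, 4.56 and 4.18 in Goto-Kakizaki hippocampi and 5.09, 4.97 and 5.18 in control hippocampi. Olig1 had 4.12, 4.18 and 4.05 in Goto-Kakizaki and 4.58, 4.67 and 4.66 in control hippocampi. Counting Mobp, the hippocampal groups did not overlap for 12 of 13 probes, all lower in Goto-Kakizaki rats, where 26.5% of all probes were lower without overlap. These pools also differed in choroid plexus RNA. The summed level of 6 choroid plexus markers was 152, 20.4 and 107 in the Goto-Kakizaki pools and 2.56, 2.80 and 122.7 in the control pools. Hippocampal markers differed too. The summed level of 5 of them was 0.57 to 0.64 in Goto-Kakizaki, 0.80 to 0.99 in control and 1.09 to 1.12 in streptozotocin hippocampi. The part of these differences in the result was not tested.

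In the prefrontal cortex, 9 of the 10 probes of the other genes were below controls in Goto-Kakizaki rats, with a median of -0.27, a lowest adjusted p of 0.106 and Sox10 at 0.12. In the striatum, 8 of 10 were below, with a median of -0.20. Ugt8 had -0.94, -2.43 and -1.17 in Goto-Kakizaki and -0.71, -0.89 and -0.54 in control striata, a change of -0.80 (SE 0.25, adjusted p = 0.0333). Mal had 3.08, 3.32 and 2.91 in Goto-Kakizaki and 3.32, 3.99 and 3.72 in control striata, a change of -0.57 (SE 0.18, adjusted p = 0.0407). Neither reached 2-fold. Mag, an adhesion protein of the innermost wrap, was at 0.35 (SE 0.21) and Sox10 at 0.26 (SE 0.21). Mag had 3.43, 4.35 and 3.56 in Goto-Kakizaki and 3.56, 3.22 and 3.53 in control striata. Sox10 had 3.54, 4.45 and 3.64 in Goto-Kakizaki and 3.64, 3.82 and 3.39 in control striata. Goto-Kakizaki striatal pool 2 was thus the highest for Mag and Sox10 and the lowest for Ugt8. Goto-Kakizaki and control pools did not overlap, with Goto-Kakizaki pools lower, for 5 of 13 probes in either region, where 13.6% of all prefrontal and 11.2% of all striatal probes were lower without overlap.

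Mog, a protein of the outermost membrane of the sheath, and Sox10 show how the genes that were not called lay by pool. In the hippocampus, Mog A_43_P12283 had levels of 3.70, 3.69 and 3.72 in Goto-Kakizaki pools, 3.59, 4.06 and 3.62 in streptozotocin pools and 3.95, 3.74 and 3.94 in control pools. In the prefrontal cortex, it had 2.09, 2.70 and 2.62 in Goto-Kakizaki pools, 1.94, 1.84 and 2.28 in streptozotocin pools and 2.30, 2.52 and 2.70 in control pools. Hippocampal Goto-Kakizaki pools and prefrontal streptozotocin pools lay below the control pools by small margins, and the other pools overlapped with them. Prefrontal Sox10 had levels of 1.83, 2.45 and 2.37 in Goto-Kakizaki pools, 1.76, 1.60 and 1.92 in streptozotocin pools and 2.01, 1.99 and 2.29 in control pools. Here too the streptozotocin pools lay below the controls, whereas Goto-Kakizaki pools spanned them.

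To ask whether the Goto-Kakizaki change differed between regions, the changes themselves were compared. None of the 13 probes was called by limma: the count was 0 for hippocampus against striatum, where 0.347% of all probes were called, 0 for hippocampus against prefrontal cortex, where 0.19% were, and 0 for prefrontal cortex against striatum, where 0.118% were. At an unadjusted p under 0.05 there were 1, 0 and 0. The 1 was Mag, with a hippocampal minus striatal change of -0.76 (SE 0.30, 95% interval -1.39 to -0.13, adjusted p = 0.189). Its Goto-Kakizaki striatal levels were 3.43, 4.35 and 3.56, with pool 2 apart from the others. For Mobp A_44_P167930 the differences of the changes were -0.17 (95% interval -0.66 to 0.31), -0.33 (-0.81 to 0.15) and 0.15 (-0.33 to 0.63) in the same order of region pairs.

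Set against streptozotocin rats, Goto-Kakizaki rats were also lower in Mobp. Mobp A_44_P167930 was called in all regions, at -1.97 for hippocampus (adjusted p = 4.09e-08), -1.21 for prefrontal cortex (adjusted p = 3.17e-05) and -1.35 for striatum (adjusted p = 9.15e-06). Mobp A_44_P353699 was called in the hippocampus, at -1.63 (adjusted p = 4.3e-05), and stood at -0.70 (adjusted p = 0.0384) in the prefrontal cortex and -0.98 (adjusted p = 0.00659) in the striatum, under 2-fold. The third probe, A_44_P245674, was under 2-fold throughout, at -0.92 for hippocampus (adjusted p = 0.00172), -0.70 for prefrontal cortex (adjusted p = 0.0104) and -0.37 for striatum (adjusted p = 0.140). The counts called lower were 2, 1 and 1 of 13, where 1.6%, 2.33% and 2.24% of all probes were. These comparisons share the Goto-Kakizaki arrays with those against controls and do not add independent evidence. Between these models the hippocampal Mbp probes were at -0.97 (adjusted p = 0.0177) and -0.81 (adjusted p = 0.0478), under 2-fold. In the prefrontal cortex the 10 probes of the other genes were all above streptozotocin rats, between 0.15 and 0.46, with a lowest adjusted p of 0.0906.

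Mobp was also read against the other genes of the same pool, as its level minus the mean of the 10 probes of the 8 other genes. For Mobp A_44_P167930 this was -1.28, -1.38 and -1.37 in Goto-Kakizaki hippocampi and 0.15, 0.14 and 0.17 in control hippocampi, a difference of -1.50. The prefrontal difference was -1.35 and the striatal one -1.58. For Mobp A_44_P353699 the differences were -1.10, -0.99 and -0.92 in the same order, also without overlap, and for A_44_P245674 they were -0.19, -0.42 and -0.19, without overlap in the prefrontal cortex alone. In streptozotocin rats, A_44_P167930 differed from controls by 0.06, 0.19 and -0.01, and A_44_P353699 by 0.12, 0.04 and 0.28, with the pools overlapping throughout. A_44_P245674 was above controls in streptozotocin rats by 0.32, 0.61 and 0.40, and its pools did not overlap with those of controls in any region. With 3 pools against 3, an exact permutation test cannot give a p under 0.1, so no test was used here.

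**Figure D3:**
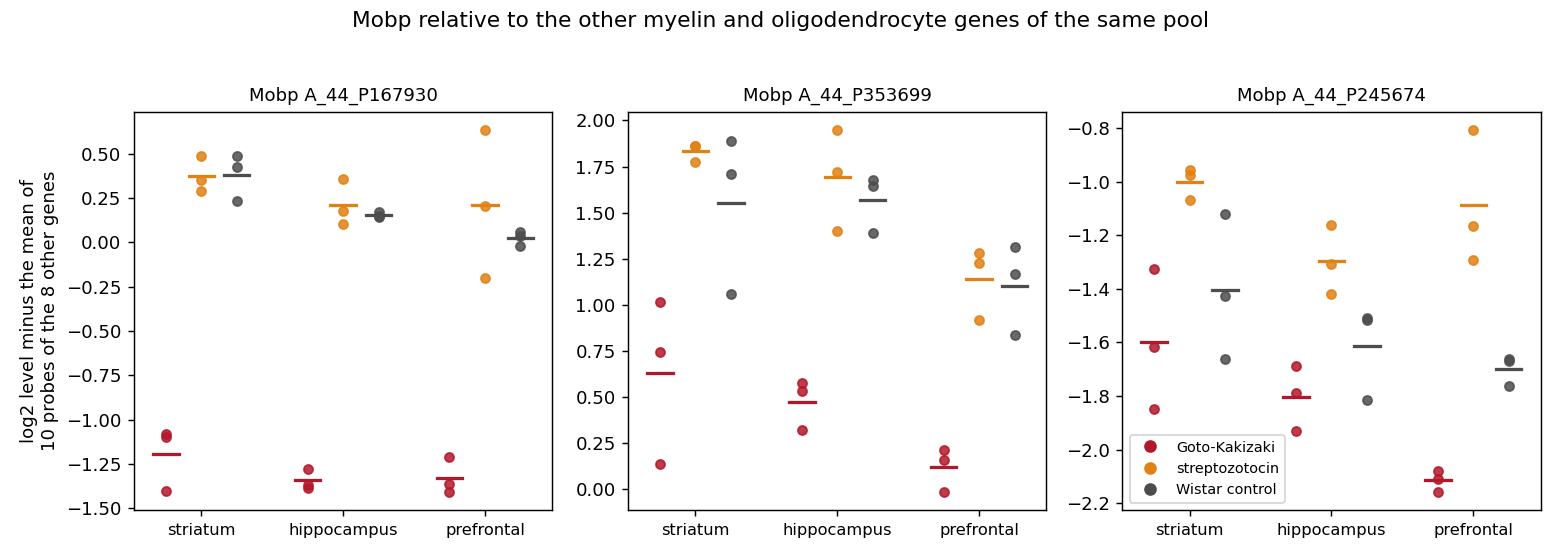
Level of each Mobp probe minus the mean of the 10 probes of the 8 other genes in the same pool (vertical axis, log2, a scale of its own for each probe), by region. Points are pools, and bars are means of 3. Goto-Kakizaki pools of A_44_P167930 lie between -1.41 and -1.08, while control pools lie between -0.02 and 0.49.

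In streptozotocin rats the genes stood close to controls in the hippocampus, and most values in the prefrontal cortex and striatum were below controls. In the hippocampus 0 of 13 probes were called by limma, where 0.639% of all probes were called either way. The count was also 0 at an unadjusted p under 0.05 and 0 by the methods' t-test, a Welch test, at 2-fold and an unadjusted p under 0.05. Of the 13 changes, 7 were negative, and the median was -0.00. In the striatum 0 of 13 were called, where 0.866% of all probes were, with 6 at an unadjusted p under 0.05 and 0 by the methods' t-test at 2-fold. All 13 striatal changes were negative, with a median of -0.36 beside -0.03 over all probes. Mal had 2.65, 3.18 and 3.00 in streptozotocin and 3.32, 3.99 and 3.72 in control striata, a change of -0.73 (SE 0.18, adjusted p = 0.0307), under 2-fold.

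In the prefrontal cortex of streptozotocin rats, 2 of 13 probes were called lower, both of Mbp (18:78130652-78241174 in GRCr8), where 0.657% of all probes were. Mbp A_43_P11782 had levels of 3.15, 3.33 and 2.78 in streptozotocin pools, 2.93, 3.88 and 3.75 in Goto-Kakizaki pools and 4.18, 3.88 and 4.53 in control pools. Mbp A_44_P334799 had 1.77, 2.03 and 1.65 in streptozotocin pools, 1.65, 2.53 and 2.55 in Goto-Kakizaki pools and 2.89, 2.47 and 3.17 in control pools. Every streptozotocin pool was below every control pool for either probe, with changes of -1.11 (SE 0.25, adjusted p = 0.0202) and -1.02 (SE 0.25, adjusted p = 0.0311). The Mbp calls rested on few pools. Either call was lost without control pool 1, control pool 3, streptozotocin pool 1 or streptozotocin pool 3, where the adjusted p of Mbp A_43_P11782 was 0.0675, 0.119, 0.0612 and 0.130. Within slides 5, 6 and 7, each with 1 pool of either group, the change of Mbp A_43_P11782 was -0.55, -1.75 and -1.03, and that of A_44_P334799 was -0.44, -1.52 and -1.11. The calls were also lost when the spread came from the prefrontal arrays alone, or after normexp background correction, where the changes were -1.22 and -1.10.

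Of the other prefrontal probes in streptozotocin rats, 10 of the 11 were also below controls without being called. Counting Mbp, 12 of 13 were negative with a median of -0.49 beside 0.01 over all probes, 11 had an unadjusted p under 0.05, and 10 did not overlap, where 12.2% of all probes were lower without overlap. Ugt8 was at -0.77 (adjusted p = 0.101), Mag at -0.54 (adjusted p = 0.206) and Mog at -0.49 and -0.44. The exception was Mobp A_44_P245674, at 0.00.

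Markers of the neighbouring striatum moved beside these values. The summed level of 8 striatal neuron markers in the prefrontal pools was 13.8, 13.05 and 14.7 in streptozotocin rats, 12.8, 15.4 and 15.2 in the Goto-Kakizaki model and 21.5, 10.1 and 32.4 in controls, while striatal pools had 201 to 344. All 8 were below controls in the streptozotocin prefrontal cortex, with a median of -0.72, and Adora2a (-1.73) and Rgs9 (-1.76) were called. In the Goto-Kakizaki prefrontal cortex their median was -1.07, and Adora2a (-1.64), Drd1 (-1.32) and Rgs9 (-1.62) were called. Control pool 2 had the lowest sum of all 9 prefrontal pools, and its Mbp A_43_P11782 level of 3.88 lay above the 3 streptozotocin pools. Within the control pools, Mbp A_43_P11782 followed the sum, with 3.88, 4.18 and 4.53 at sums of 10.1, 21.5 and 32.4. It also rose in the Goto-Kakizaki pools, with 2.93, 3.75 and 3.88 at sums of 12.8, 15.2 and 15.4. Within the streptozotocin pools it ran the other way, with 3.33, 3.15 and 2.78 at sums of 13.05, 13.8 and 14.7. Markers of neurons in general differed as well. The summed level of 8 of them was 193 to 211 in control, 222 to 243 in streptozotocin and 225 to 241 in Goto-Kakizaki prefrontal pools. The part of striatal tissue or of the share of neurons in the prefrontal values was not tested.

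**Figure D4:**
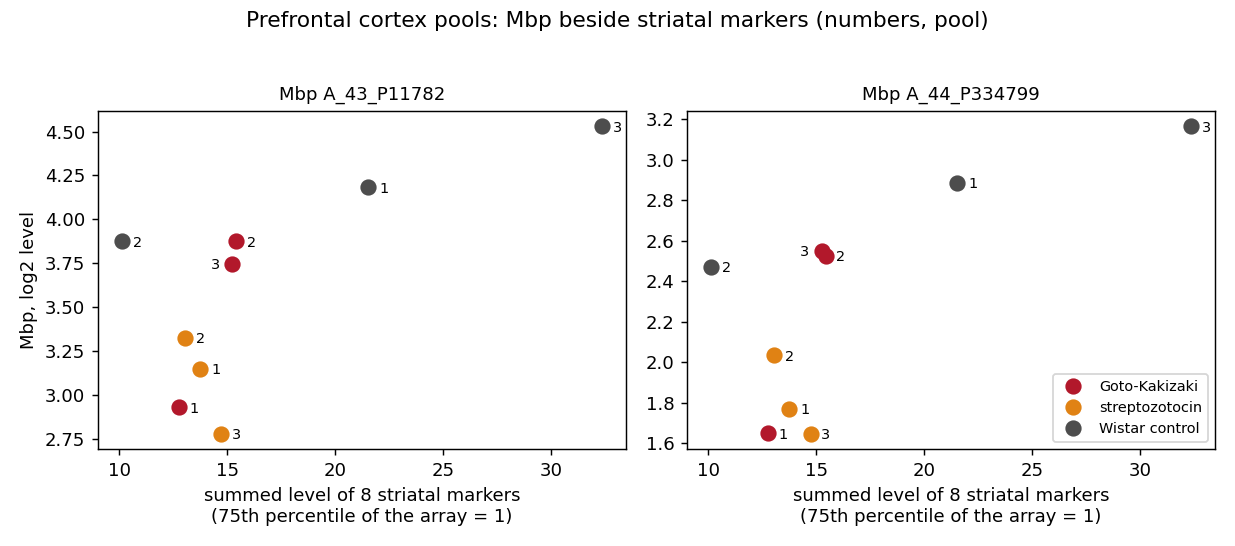
Level of the Mbp probes (vertical axes, log2) against the summed level of 8 striatal markers (horizontal axis, 75th percentile of the array as 1) in the 9 prefrontal pools, numbered by pool. Control pools 1 and 3 lie highest on both axes (sums of 21.5 and 32.4), and control pool 2 has the lowest sum (10.1) with Mbp above the streptozotocin pools.

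A comparison chosen after these values were seen asked whether the streptozotocin change differed between regions. For Mbp A_43_P11782 the prefrontal minus hippocampal change was -1.35 (SE 0.36, unadjusted p = 0.00113 in the limma fit, adjusted p = 0.280), and for A_44_P334799 it was -1.16 (adjusted p = 0.381). None of the 13 probes was called in this comparison, where 0% of all probes were, nor for prefrontal cortex against striatum, where 0% were, nor for hippocampus against striatum, where 0.762% were. The counts at an unadjusted p under 0.05 were 3, 0 and 3.

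Other genes of the lineage were read by lists that do not hold the 9 genes, with 1 probe a gene. Of 21 proteins of compact myelin and the sheath, 20 were called higher in the striatum than in the prefrontal cortex of controls, with a median of 1.60, where 3.96% of all probes were. Of the same 21, 9 were called higher in the striatum than in the hippocampus, where 4.15% of all probes were, and 8 lower in the prefrontal cortex than in the hippocampus, where 2.46% were. Cnp, an enzyme of non-compact myelin, differed by 1.17 between striatum and prefrontal cortex and was called. Of 7 genes of myelin lipid synthesis on the array, 5 were called higher in the striatum than in the prefrontal cortex (median 1.17), set against the same 3.96%. Of 11 transcription and fate genes, 3 were (median 0.68), of 8 genes of precursors 1 was (median 0.29), and of 9 partners on the axon 0 were (median 0.31).

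**Figure D5:**
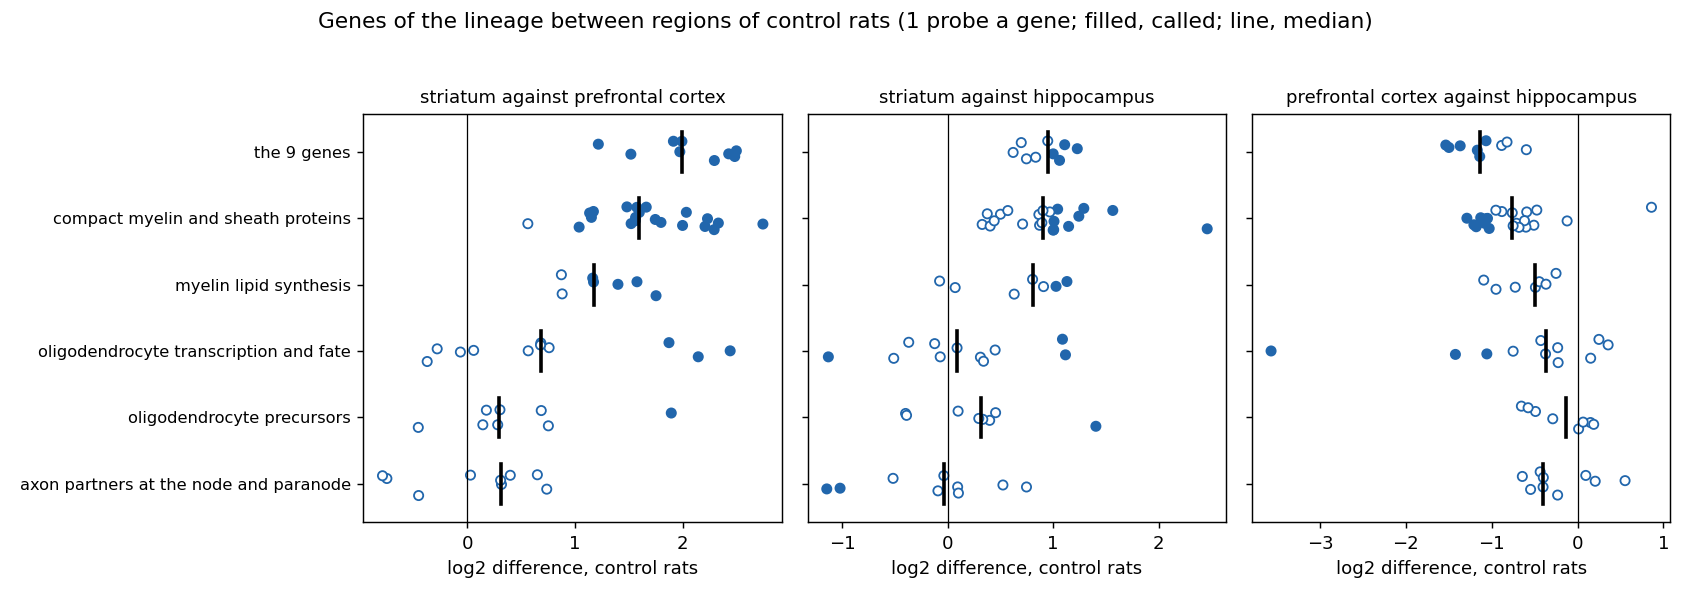
Log2 difference between regions of control rats (horizontal axis) for the 9 genes and 5 lists of the lineage, 1 probe a gene. Filled points are called and bars are medians. Between striatum and prefrontal cortex the medians are 1.99 for the 9 genes, 1.60 for sheath proteins, 1.17 for lipid synthesis, 0.68 for transcription and fate, 0.29 for precursors and 0.31 for axon partners.

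Against controls, no sheath protein, lipid synthesis, fate or axon gene was called by limma in either model in any region. The hippocampal, prefrontal and striatal medians of the sheath proteins were -0.16, -0.25 and 0.02 for the Goto-Kakizaki model, and 0.05, -0.38 and -0.17 for the streptozotocin model. Cnp was at -0.43, -0.25 and 0.47 for Goto-Kakizaki, and at 0.24, -0.49 and -0.04 for streptozotocin, in the same order. The precursor genes Pdgfra, a growth factor receptor, and Cspg4, a proteoglycan, lay between -0.27 and 0.13 for Goto-Kakizaki and between -0.50 and 0.03 for streptozotocin, and none was called. Olig2, a partner of Olig1, was at -0.66, -0.26 and 0.62 for Goto-Kakizaki and at -0.21, -0.14 and -0.22 for streptozotocin, and was not called either.

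The exception among 5 lists was Enpp6, a choline phosphodiesterase of newly formed oligodendrocytes. Prefrontal levels of Enpp6 were -0.997, -1.39 and -0.74 in streptozotocin pools, -0.32, 0.47 and 0.34 in Goto-Kakizaki pools and 0.02, 0.02 and 0.49 in control pools, and the streptozotocin pools overlapped with neither. In streptozotocin rats it was called lower in the prefrontal cortex, at -1.22 (SE 0.20, adjusted p = 0.00222), and stood at -0.92 in the striatum (adjusted p = 0.0150, under 2-fold) and -0.37 in the hippocampus. Goto-Kakizaki rats were higher than streptozotocin rats in Enpp6 by 1.21 for prefrontal cortex and 1.08 for striatum on the log2 scale, both called.

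Among markers of other cells, S100b was called higher in streptozotocin rats by 6.10 for hippocampus, 5.77 for prefrontal cortex and 5.66 for striatum on the log2 scale. It encodes a calcium-binding protein of astrocytes, and oligodendrocytes can make it too. The 7 other astrocyte markers were not called in streptozotocin rats. The summed level of the 8 astrocyte markers was 126 to 160 in streptozotocin hippocampi and 116 to 130 in control hippocampi. S100b was read by 1 probe, as every list gene was, and the part of the probe itself in its change was not tested. In Goto-Kakizaki rats, the microglial gene Itgam was called lower in the hippocampus (-1.71), while the 8 microglial markers had a median of -0.03 there and a summed level of 39.9 to 42.0 in Goto-Kakizaki pools and 29.9 to 39.4 in control pools. In these rats Cd68 of phagocytes (1.08), Fgfr3 of astrocytes (1.04) and Prx of Schwann cells (1.02) were called higher in the striatum, where Egr2, a transcription factor of Schwann cells and neurons, was called lower (-1.13). The summed striatal level of the microglial markers was 57.8 to 101 in Goto-Kakizaki and 41.9 to 48.5 in control pools. That of the astrocyte markers was 131 to 146 and 120 to 138, with overlap. The Schwann cell sum was lower in Goto-Kakizaki pools, at 1.17 to 1.85 against 2.30 to 4.69, although Prx was higher.

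Between pools of the same group, the tested probes other than that of Ugt8 tended to move together. Over the 27 arrays, the deviations of probes from their group means had a median Pearson correlation of 0.53 in the 66 pairs without Ugt8, with a lowest value of 0.04, and of 0.57 to 0.93 in the 5 pairs of probes of the same gene. In the 12 pairs with Ugt8 A_44_P306162 the median was -0.19, and 8 of them were negative. These points share RNA, labelling and scaling, and are given as a description. Goto-Kakizaki striatal pool 2 stood apart, with the lowest striatal Ugt8 (-2.43) and the highest Mag (4.35) and Sox10 (4.45) of any pool. Its array had the lowest 75th percentile (690) and the lowest share of probes well above background (67.4%). The summed level of microglial markers was 101 in this pool, and 65.1 and 57.8 in the other Goto-Kakizaki striatal pools. The part of these differences in the values was not tested.

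The genes whose 9 group means were most like the average pattern of the 9 genes, of 12386 genes ranked, were Prr5l (r = 0.991), a partner of the TORC2 kinase complex, Npr1 (r = 0.991), a natriuretic peptide receptor, Fah (r = 0.990), an enzyme of tyrosine breakdown, Bcas1 (r = 0.988), a gene of myelinating oligodendrocytes, Klk6 (r = 0.988), a secreted protease, and Ppp1r14a (r = 0.986), a phosphatase inhibitor. Of the 9 genes themselves, Cldn11 was the most like their average (r = 0.999), and Mobp A_44_P353699 the least (r = 0.938). These correlations run over 9 group means that share regions and animals.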

How the data were processed

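Per the labels and the study's methods, RNA of 3 identically treated animals was pooled, labelled with Cy3 and hybridised to Agilent whole rat genome arrays, read with Agilent Feature Extraction 9.1. The deposited intensities are the authors' scanner values, background-subtracted by that program, and the deposited value table equals its processed signal. Each non-control signal was taken as log2 minus the log2 75th percentile of its array, and outlier spots were left out. Within a region, probes entered the test when at least 1 group had 2 of 3 arrays well above background. Differences came from limma 3.58.1 in R 4.3.3 with 9 group means, 18 residual degrees of freedom and Benjamini-Hochberg adjustment over all probes tested in that comparison. The methods name Welch's test at 2-fold, kept as an alternative. It was run here on all tested probes with the scaling above. The study ran it after normalizing to control medians and screening out dim and unaltered probes, so the counts need not match. The fit treated arrays of different regions as independent, although the same animals gave all regions, and comparisons between regions rest on this. Whether same-numbered pools of different regions hold the same animals is not stated. The number of arrays, 3 a group, limits the precision. Named were the 9 genes by every probe, list genes called against controls, 5 fixed lineage genes, of which 1 is not reported here, and the 6 most alike genes. The genes and lists were chosen with earlier results of these data known. Gene positions and current names came from the RefSeq table for GRCr8. The fit was tested on simulated data. Pool numbers paired arrays in a single comparison, that of prefrontal streptozotocin and control pools, where same-numbered pools shared a slide and correlated at 0.494, 0.474 and 0.716 in their deviations. Control striatal and prefrontal pools 2 and 3 shared slides too (0.548 and 0.598), but pool 1 did not (-0.183). Alternatives were other scalings, background corrections, filters, samples in the fit, slides, the replicate block and leaving out each pool.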

Additional observations from a re-analysis of the deposited data

How the results depend on the processing

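No called probe turned its direction under any alternative run. Counts, relative Mobp values and uncalled probes were not checked for a change of direction. Apart from leaving out pools, 273 recomputed counts and relative Mobp values stayed close to the value reported and 28 moved, and of single called probes 663 stayed called and 58 did not. For Goto-Kakizaki rats against controls (2 called in each region), the groups compared alone gave 1 in prefrontal cortex and 1 in striatum, the methods' t-test with adjustment 0 in both, where it called 0 of all probes, and for striatum no fold threshold gave 4 and normexp background correction 1. Mobp A_44_P167930 relative to the other genes was -1.26 in prefrontal cortex after normexp. Against streptozotocin rats, no fold threshold gave 5 in hippocampus, 3 in prefrontal cortex and 2 in striatum, scaling to the 50th percentile 2 in striatum, and the t-test 0 in prefrontal cortex and 0 in striatum, with 87 and 7 of all probes called. For streptozotocin rats against controls in prefrontal cortex (2 called), the prefrontal arrays alone, the groups alone, normexp and the t-test (0 of all probes) each gave 0, and the 50th percentile 1. Within slides 5, 6 and 7 the count was 0 each, but these set 1 pool against 1 with the spread of the other arrays assumed, and say nothing about stability. No fold threshold gave 1 in striatum. In controls, striatum against hippocampus (8 called) had 13 with no fold threshold, 2 with normexp, 2 by the t-test and 5 without slides 5 to 7, which leaves 1 striatal control pool assumed to vary like the other groups. The t-test gave 3 for prefrontal cortex against hippocampus (9 called) and 8 for striatum against prefrontal cortex (13 called). The cause of these shifts was not tested. Leaving out each pool gave 1 to 3 calls for Goto-Kakizaki against control striata, 2 to 4 for Goto-Kakizaki against streptozotocin hippocampi, 1 to 2 for their striata and 0 to 2 for streptozotocin against control prefrontal cortex. The replicate block changed no count of calls, with 2 for streptozotocin against control prefrontal cortex, the comparison whose pools pair. The 7 slides were scanned on the same day. Arrays of both groups shared a slide for Goto-Kakizaki against control hippocampus and striatum, streptozotocin against control prefrontal cortex, and control striatum against prefrontal cortex, and for no other pair of groups compared. With slide as a random block, striatum against hippocampus had 7 calls and no other count changed. The 13 tested probes were well above background on every array. Ugt8 A_44_P306162 was dim in the prefrontal cortex, at -3.34 to -3.02 in control and -4.03 to -3.87 in streptozotocin pools. Normexp background correction changed the counts named above, and the part of background in them was not tested. The second Ugt8 probe gives no value.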
